A study of Drosophila melanogaster with 3 samples.

Results

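Forkhead-domain transcription factors bind DNA through a winged-helix fold, most often at sites built around the core GTAAACA, and many of them direct the formation of particular organs or cell types in the embryo. The 10 forkhead genes described here are fkh, bin, slp1, slp2, croc, jumu, CHES-1-like, FoxK, FoxP and FoxL1, out of 13945 protein-coding genes of Drosophila melanogaster. They were selected on earlier results of the same data, namely the binding sites near these genes, so what follows is a description of those sites with no test. At all 10 the question was where a zinc-finger protein, CG12071, was found on chromatin within the gene or up to 2 kb to either side of it.

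The material was a single group of 3 biological replicates of chromatin immunoprecipitation followed by sequencing. Whole embryos of 12 to 24 hours, males and females together, came from a line with a transgene in which CG12071 ends in green fluorescent protein. All replicates carried the transgene and no untagged or treated group was analysed here, so there is no comparison between conditions. What drives the transgene and how many embryos were pooled are not given in the sources used here, and in whole embryos a site used in few cells cannot be told apart from a site weakly used in many. A free-text label calls the replicates input controls, while the assay title, the antibody and the naming of a separate control point to immunoprecipitations, and they were read as immunoprecipitations. The label of age holds a number that cannot be an embryo's age in hours, and the window was taken from the source name.

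For each replicate the authors deposited 30000 ranked entries, which run from peaks down into background, and as many for the pooled reads. From these the authors kept 4261 peaks by the irreproducible discovery rate, called thresholded here, all of them found at the head of the pooled list. Strength was read as the rank of the authors' signal value within a list, where rank 1 is the strongest. Read depth was unknown. Replicate 1 had 13828 entries with a q-value of 0.05 or less, replicate 2 had 12616 and replicate 3 had 4015, so in replicate 3 the strongest 4261 entries include some above that q-value. A replicate is said to support a site when a summit among its 4261 strongest entries lies within 100 bp of the thresholded summit. The thresholded list was made from the same replicates, so this support is not independent of it.

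Of the 10 forkhead genes, 7 had at least 1 thresholded summit in the gene or within 2 kb: CHES-1-like 11, jumu 3, fkh, bin and FoxK 2 each, slp1 and FoxL1 1 each. The genes slp2, croc and FoxP had none. Among all protein-coding genes 27.6% had such a summit. That share grew with the length of the window searched, from 19.7% of genes with a window under 8 kb to 37.4% from 8 to 16 kb and 58.9% above 16 kb. In the shortest class were bin, slp1, slp2, croc and FoxL1, in the middle one fkh, jumu, FoxK and FoxP, and in the longest CHES-1-like. The 22 summits were all distinct, and for every one of them the nearest start site of any protein-coding gene was that of the forkhead gene itself. They came to 2.06 per 10 kb of the forkhead windows, and to 1.46 without CHES-1-like, against 0.377 per 10 kb over the windows of all genes.

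**Figure D1:**
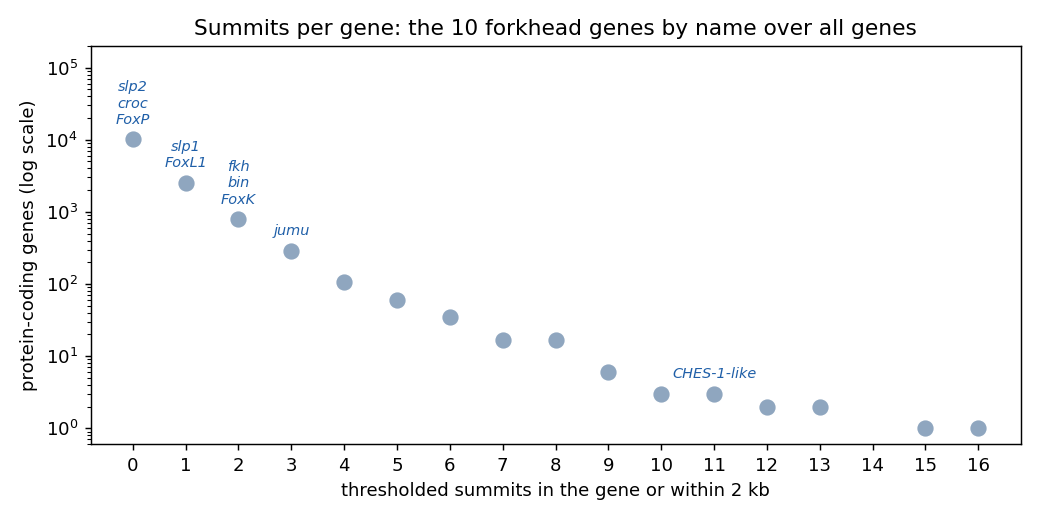
Number of protein-coding genes (vertical axis, log scale) with each number of thresholded summits in the gene or within 2 kb (horizontal axis); each point is a count of genes, and the forkhead genes are named above the point they belong to. CHES-1-like stands at 11 summits, a number that 9 genes reached or passed, and 3 forkhead genes stand with the 10099 genes at 0.

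The sequences below are 101 bp of the dm6 reference (RefSeq copy of release 6) centred on the summits on which the description turns: the strongest site of the family, 3 of the strongest CHES-1-like sites, and the strongest FoxK and jumu sites. Site numbers follow the order of strength within a gene. Capitals mark 4 forkhead cores read on either strand: the core GTAAACA and its variants, of which the first is GTAAATA, the next is GCAAACA and the last is GCAAATA. On the opposite strand GTAAACA reads TGTTTAC. The variant GTAAATA then reads TATTTAC. The variant GCAAACA reads TGTTTGC. A sequence with no capitals has none of these 4 words.
fkh site 1, chr3R:28585445-28585545, plus strand: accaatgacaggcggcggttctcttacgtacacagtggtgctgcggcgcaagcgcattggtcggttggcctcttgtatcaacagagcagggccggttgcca
CHES-1-like site 1, chrX:7706963-7707063, plus strand: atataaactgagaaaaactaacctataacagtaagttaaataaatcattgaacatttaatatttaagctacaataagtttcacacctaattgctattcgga
CHES-1-like site 3, chrX:7698356-7698456, plus strand: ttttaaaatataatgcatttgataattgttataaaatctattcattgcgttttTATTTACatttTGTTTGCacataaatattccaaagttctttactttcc
CHES-1-like site 4, chrX:7697040-7697140, plus strand: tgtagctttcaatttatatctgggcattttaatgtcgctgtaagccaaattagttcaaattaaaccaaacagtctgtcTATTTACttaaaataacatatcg
FoxK site 1, chr3L:11118765-11118865, plus strand: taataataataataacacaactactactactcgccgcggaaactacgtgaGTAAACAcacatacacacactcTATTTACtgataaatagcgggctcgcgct
jumu site 1, chr3R:10350849-10350949, plus strand: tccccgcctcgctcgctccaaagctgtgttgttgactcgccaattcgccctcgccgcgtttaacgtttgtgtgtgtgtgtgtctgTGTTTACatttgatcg

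The strongest site of the family lay at the promoter of fkh, the founding gene of the family, which is needed for the salivary glands and the ends of the gut. fkh (FBgn0000659) spans 28580976 to 28585264 on the minus strand of 3R. The peak ran from 28585206 to 28585639, with its summit at 28585495, 231 bp upstream of the start site of isoform fkh-RD and outside all transcripts. It stood at rank 79 of all thresholded peaks, with an authors' signal value of 1252. Replicates 1, 2 and 3 had it at ranks 51, 72 and 123 (mean 82.0 ± 37.0, SD, n = 3). The summits of the 3 replicates lay 2, 3 and 9 bp from the thresholded one. All 3 replicates thus held it near the head of their lists and at nearly the same base.

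The second fkh site was much weaker. Its summit was 1922 bp upstream of fkh-RD, inside the noncoding gene lncRNA:CR43126. It stood at rank 2802 of all thresholded peaks, and replicates 1, 2 and 3 had it at 3065, 3801 and 2430 (mean 3099 ± 686, SD, n = 3), so it was supported by all of them. Beyond the 2 kb flank the upstream region held further thresholded summits 3335 and 5463 bp from the gene, with ranks of 2930 and 1518, both also inside that noncoding gene and supported in all 3 replicates.

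The promoter peaks with the most similar ranks to the fkh promoter in the 3 replicates were those of CG8036, CG7841 and for, a cGMP-dependent protein kinase gene. Likeness was the Euclidean distance between log2 ranks over 3 replicates among the strongest 426 thresholded peaks, and came to 0.46 for CG8036, 0.47 for CG7841 and 0.61 for for. Their thresholded ranks were 63, 77 and 82.

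CHES-1-like, a relative of the vertebrate FoxN genes with a part in the divisions of heart precursors, held as many sites as all other members together. The gene (FBgn0029504) spans 7682338 to 7709385 on the minus strand of X and has 4 annotated start sites, for isoforms RC, RB, RA and RD in the order of transcription. Their long first introns end at shared exons. Of the 11 thresholded summits, 10 lay in the first intron of RC, which is 18998 bp long, at 5.26 per 10 kb. The remaining one lay in the 5' UTR of RC. That intron was singled out because it held the sites, and the density over other first introns was not counted. Over its whole window CHES-1-like had 3.54 thresholded summits per 10 kb. None of the 11 lay in coding sequence or downstream of the gene. Neighbouring summits were 742 to 4253 bp apart (median 1626 bp), over 18251 bp in all.

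The 4 strongest CHES-1-like sites ranked within the strongest 426 thresholded peaks. Site 1 (7706824 to 7707144) lay in the first intron of RC, 2050 bp upstream of the RB start site. It stood at rank 147, and replicates 1, 2 and 3 had it at 184, 189 and 109 (mean 161 ± 44.8, SD, n = 3). Site 2 (7700275 to 7700564), in the first introns of RB and RC and 3699 bp upstream of RA, ranked 183 and, in the replicates, 151, 315 and 152 (mean 206 ± 94.4, SD, n = 3). Sites 3 and 4 were 1702 and 386 bp upstream of RA, with thresholded ranks of 283 and 395. Their mean ranks were 299 ± 68.2 and 448 ± 137 (SD, n = 3), and in no replicate was any of these 4 sites weaker than rank 603.

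Thresholded promoter sites at CHES-1-like belonged to 2 of its 4 start sites. Site 4 was at RA, and site 8, 288 bp downstream of the RC start site, stood at rank 1346, with 1771, 1742 and 1068 in replicates 1, 2 and 3. The nearest summit to RB was site 5, 685 bp upstream (thresholded rank 807, mean rank 847 ± 157, SD, n = 3). The nearest thresholded summit to RD, on the downstream side, was site 10 at 2081 bp. Entries that fell short of the threshold lay nearer to both start sites. One was 397 bp upstream of RD, at pooled rank 5522 and at 4486, 10141 and 18544 in replicates 1, 2 and 3. Another was 437 bp downstream of RB, at pooled rank 8937. Sites 6, 7 and 9, all in first introns, had mean ranks of 1155 ± 656, 1583 ± 620 and 2003 ± 576 (SD, n = 3).

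**Figure D2:**
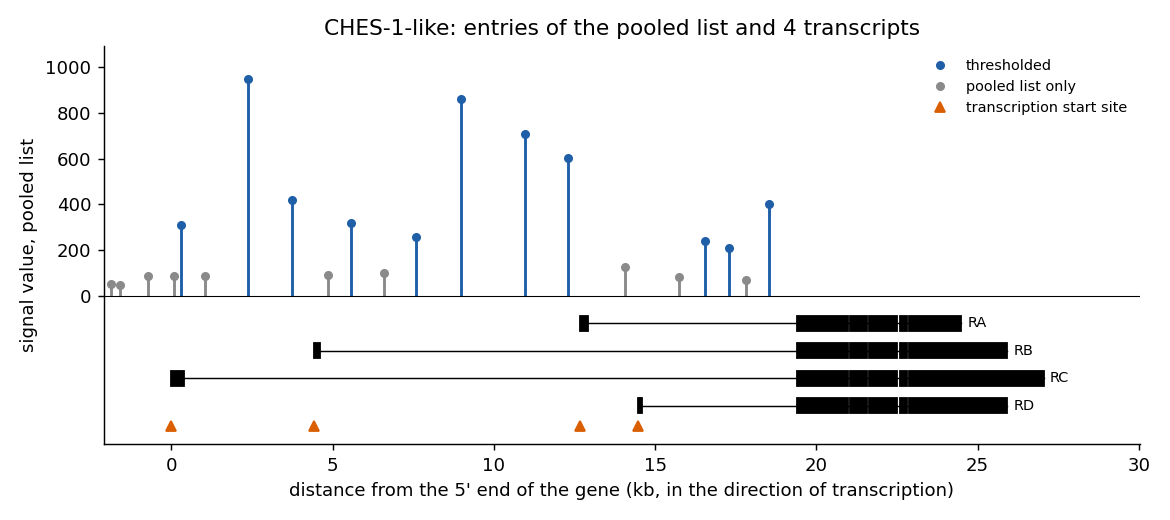
Authors' signal value in the pooled list (vertical axis) against distance from the 5' end of CHES-1-like in kb (horizontal axis), with thresholded entries in blue, entries below the threshold in grey, and below them the 4 transcripts (boxes are exons, lines introns) with their start sites as triangles. The 11 thresholded summits lie within the first 20 kb, before the exons that all transcripts share, and the pooled list holds 21 entries in the window.

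Sites 10 and 11, the weakest at CHES-1-like, were the ones on which the replicates differed. Site 11, of thresholded rank 2588, stood at 1547 in replicate 2 and 1432 in replicate 3 but at 14259 in replicate 1. Site 10, of thresholded rank 2087, stood at 4715 in replicate 1 and 2106 in replicate 2, with no entry within 100 bp in replicate 3. In replicate 1 a second entry, of rank 1959, lay 166 bp from site 10. In replicate 3 one lay 104 bp from it, but its rank of 4776 was past the limit of 4261. Whether these entries belong to the same site was not tested. The other 9 sites were supported by all 3 replicates.

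FoxK, a factor with a part in midgut development, carried its sites at internal promoters. The gene (FBgn0036134) spans 11114169 to 11120783 on the minus strand of 3L and has 4 distinct start sites. Site 1 (11118691 to 11118891) was 349 bp upstream of the start site of FoxK-RI and in the first intron of all 7 other transcripts. Its thresholded rank was 835, and replicates 1, 2 and 3 had it at 893, 836 and 885 (mean 871 ± 30.9, SD, n = 3), the smallest SD among the 19 forkhead-gene sites with a rank in every replicate. Its core GTAAACA was centred 3 bp from the summit. Site 2 (11119940 to 11120309) was 286 bp downstream of the FoxK-RJ start site, with a thresholded rank of 1351 and ranks of 1048 in replicate 1 and 1976 in replicate 2. In replicate 3 the nearest entry, of rank 2040, lay 116 bp away, just past the 100 bp limit for support. At the start site shared by 5 FoxK isoforms an entry fell short of the threshold, at pooled rank 5579.

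jumu, which acts in neuroblast divisions and in the heart, had 3 sites in its single first intron of 7511 bp and none within 500 bp of its start site. The gene (FBgn0015396) spans 10350182 to 10361612 on the plus strand of 3R. Site 1 (10350714 to 10351083) was 717 bp downstream of the start site. Its thresholded rank was 990, and replicates 1, 2 and 3 had it at 515, 982 and 6067 (mean 2521 ± 3080, SD, n = 3), strong in replicates 1 and 2 and weak in replicate 3. Site 3, 1356 bp downstream, ran the other way, with ranks of 5206, 2643 and 991 in replicates 1, 2 and 3. Site 2, 6945 bp downstream, ranked 1166, 2435 and 3275 and was the 1 jumu site supported by all 3. In replicate 3 the entry of rank 3275 lay 82 bp from the thresholded summit, and a stronger one, of rank 1636, lay 121 bp from it. Adjacent sites of 1 intron thus differed in which replicate ranked them highest, and the entry at pooled rank 4551, between sites 3 and 2, fell just short of the threshold.

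**Figure D3:**
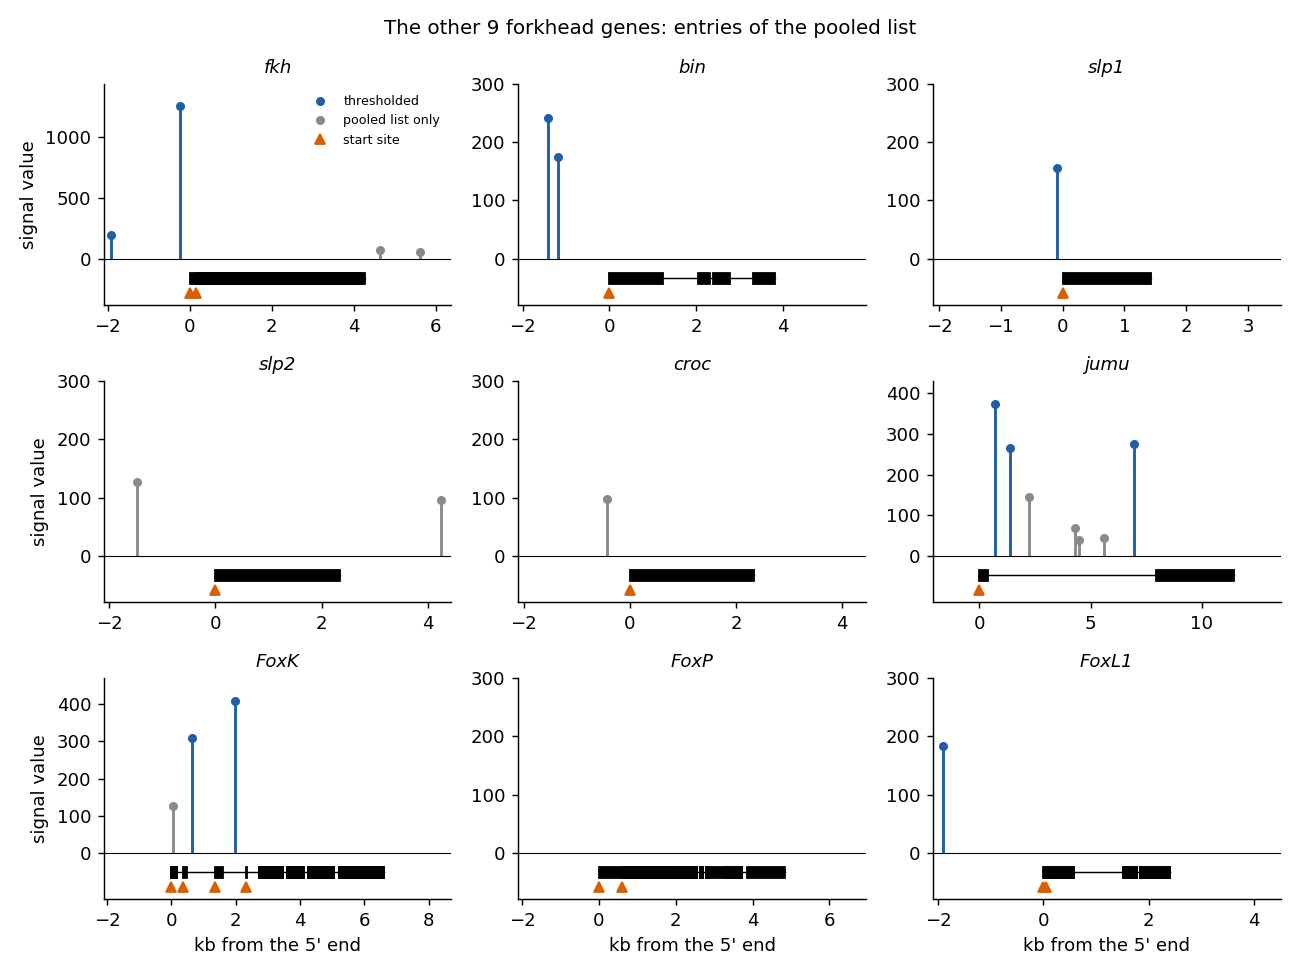
Authors' signal value in the pooled list (vertical axis, each panel with its own scale) against distance from the 5' end in kb (horizontal axis) for the other 9 forkhead genes, with thresholded entries in blue, entries below the threshold in grey, exons as boxes and start sites as triangles. fkh has the highest value, 1252, jumu and FoxK have their sites in introns or at internal start sites, and FoxP has no pooled entry.

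The members with weaker sites were bin, FoxL1 and slp1. bin (FBgn0045759, 3L, 6990622 to 6994447, plus strand) is required for the visceral mesoderm, the muscle of the gut. Its 2 summits lay 1420 and 1193 bp upstream of the start site, 227 bp apart, and the peaks, 6989017 to 6989386 and 6989244 to 6989613, overlapped. Site 1 ranked 4625, 2329 and 1311 in replicates 1, 2 and 3 (mean 2755 ± 1698, SD, n = 3). Site 2 ranked 13990, 5021 and 1592 (mean 6868 ± 6402, SD, n = 3). At both sites replicate 3 had the strongest entry and replicate 1 the weakest, the reverse of jumu site 1.

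FoxL1 (FBgn0004895, 3L, 4018878 to 4021279, plus strand), a mesodermal factor with a part in placing the salivary gland, had 1 thresholded summit, 1899 bp upstream of FoxL1-RB and so just inside the 2 kb limit. Its thresholded rank was 3188, and replicates 1, 2 and 3 had it at 4775, 5551 and 2048 (mean 4125 ± 1840, SD, n = 3), with support from replicate 3 alone. The next thresholded summit outside the limit lay 4663 bp downstream, 69 bp from a start site of CG11594.

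The paired genes slp1 and slp2, which act in segmentation and later in the nervous system, had little within 2 kb. At slp1 (FBgn0003430, 2L, 3825675 to 3827099, plus strand) the single summit was 94 bp upstream of the start site and ranked 4067, close to the end of the thresholded list. No replicate supported it: replicate 1 had no entry within 100 bp, and replicates 2 and 3 had ranks of 5497 and 12062. At slp2 (FBgn0004567, 2L, 3836840 to 3839185, plus strand) the strongest pooled entry, 1469 bp upstream, ranked 5574, with 4516 and 4777 in replicates 1 and 2, just past the limit of 4261, and no counterpart in replicate 3, whose strongest entry of the window ranked 15417. A far stronger peak lay between the genes and outside both windows (3832383 to 3832633). Its summit was 5418 bp downstream of slp1 and 4323 bp upstream of slp2, and its thresholded rank was 249, with 203, 443 and 203 in replicates 1, 2 and 3.

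croc and FoxP had no site within the limits. At croc (FBgn0014143, 3L, 21474133 to 21476479, minus strand), a gene of head development, the only pooled entry was 430 bp upstream of the start site at rank 8219. Replicate 1 had it at 11092, replicate 3 at 27041 and replicate 2 not at all. A thresholded peak lay 3424 bp upstream of croc (21479795 to 21479995), with croc as the gene of the nearest start site. It ranked 1018, and 1205, 1020 and 1099 in the replicates. FoxP (FBgn0262477, 3R, 9726020 to 9730872, minus strand), known for its part in motor learning and decisions of the adult fly, had no pooled entry in its window. Replicate 1 alone had an entry there, at rank 9073, beyond the 3' end. A list of 30000 entries is cut at its length, so no entry says only that none ranked among these.

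By position, 12 of the 22 sites were intronic, 6 within 500 bp of a start site and 4 in the upstream flank, and no summit was downstream of a gene or in coding sequence. The 6 promoter sites are 27.3% of the sites, against 40.7% of all thresholded peaks within 500 bp of a protein-coding start site. Promoter sites included, 15 of the 22 lay in a first intron of at least 1 transcript, 10 of them in that of CHES-1-like RC. The shares of introns, flanks and coding sequence over all thresholded peaks were not counted. Nothing is therefore read from these positions about the family. Promoter sites belonged to 4 of the 10 genes, fkh, slp1, CHES-1-like and FoxK, against 13.4% of all protein-coding genes. Any annotated start site counted, and CHES-1-like and FoxK have 4 each, against 19252 distinct start sites over 13945 genes. Only fkh and slp1 had a summit within 250 bp of a start site, and no replicate supported the slp1 site.

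Support by all 3 replicates was found for 13 of the 22 sites (59.1%), against 48.5% of all thresholded peaks. CHES-1-like gave 9 of its 11 sites and the other members 4 of 11, namely both fkh sites, FoxK site 1 and jumu site 2. Genes with a site supported by all 3 replicates were thus 4 of the 10, against 16.2% of all protein-coding genes. Replicate 1 supported 15 of the sites, replicate 2 supported 19 and replicate 3 supported 18. Over the 19 sites with an entry within 100 bp in every replicate, Spearman's rho of the ranks was 0.87 between replicates 1 and 2, 0.55 between 1 and 3 and 0.71 between 2 and 3. Those values describe sites that share genes and libraries and carry no test. When only sites supported by both other replicates were kept, the members with a site were 5 without replicate 1, 4 without replicate 2 and 4 without replicate 3, and the sites were 16, 13 and 15.

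**Figure D4:**
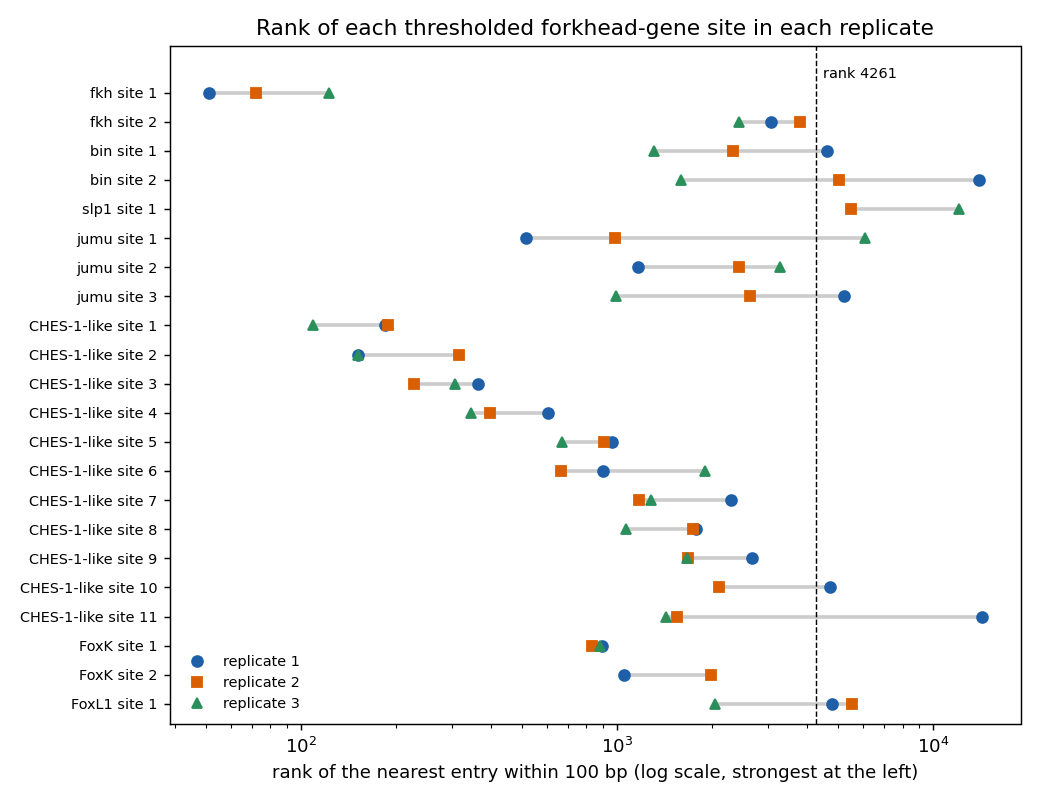
Rank of the nearest entry within 100 bp (horizontal axis, log scale) for each of the 22 thresholded sites (vertical axis) in replicates 1 to 3, with a grey bar over the range and a dashed line at rank 4261. fkh site 1 and CHES-1-like sites 1 to 4 keep to ranks of 603 or stronger in all replicates, while both bin sites, slp1 site 1, jumu sites 1 and 3, CHES-1-like sites 10 and 11 and FoxL1 site 1 spread across the line or lie past it.

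The forkhead core itself was among the words found more often at CG12071 summits than beside them. GTAAACA lay within 50 bp of 6.64% of all thresholded summits (283 of 4261, Wilson 95% interval 5.93 to 7.43%), against 2.69% of windows of the same width centred 300 bp to either side. Of the 40 words of 7 bases with the largest such difference in percentage points over the 4239 thresholded peaks outside the forkhead windows, GTAAATA stood at place 2, GCAAACA at 4, GTAAACA at 5 and GCAAATA at 10. At place 1 was ATATTTG, with 8.45% against 3.55%. AAATATT stood at place 3, TAAACAA at 6, ACAAATA at 7, ATATTTA at 9 and ACAAACA at 12, and these were not taken as cores. The list thus held other words rich in A and T. Base composition at the summits was not compared with that of the windows beside them, and its part in these differences was not tested. These 4 cores, 3 of which were chosen after that search, were together present at 23.4% of all thresholded summits, against 11.6% of the windows beside them. The search ordered words by this same difference, so the joint excess is not independent of the choice and is given as a description. The density of the 4 cores was highest in the 20 bp around the summit, at 7.49 matches per 100 peaks, with the same limit.

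**Figure D5:**
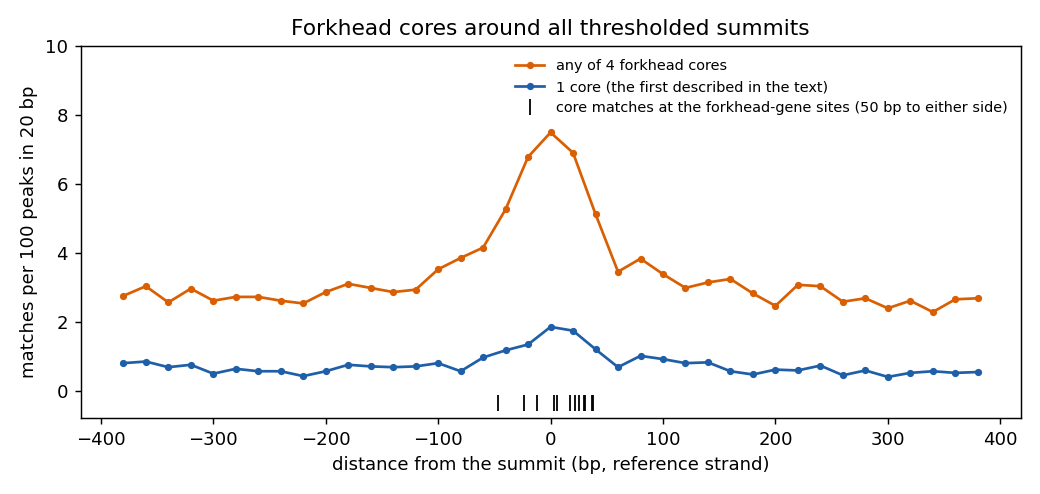
Matches to the forkhead cores per 100 thresholded peaks in bins of 20 bp (vertical axis) against distance from the summit in bp (horizontal axis), for GTAAACA in blue and for any of the 4 cores in orange, over all 4261 peaks; the marks below the curves are the 12 matches at the forkhead-gene sites. Both curves are highest at the summit, where all 4 cores together reach 7.49 and the single core reaches 1.85.

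At the forkhead genes themselves 3 of the 22 sites held GTAAACA within 50 bp of the summit (13.6%), against the 6.64% of all thresholded peaks: FoxK sites 1 and 2, with the core 3 and 22 bp away, and jumu site 1, at 38 bp. Any of the 4 cores was found at 9 sites (40.9%), against 23.4% of all thresholded peaks, with 12 matches in all. CHES-1-like site 3 had GTAAATA at 6 bp and GCAAACA at 17 bp from the summit, and its sites 4, 6 and 9 and fkh site 2 and jumu site 2 also held 1 or 2 each. The 13 sites without any of these 4 words included the strongest, fkh site 1 and CHES-1-like sites 1 and 2. Other variants of the core were not sought at the sites. A match is a run of letters and not a measured binding site of any factor. Base composition differed as well: the median GC content within 50 bp was 34.2% at these sites (range 18.8 to 59.4%), against 38.6% over all thresholded peaks, and its part in the core matches was not tested.

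The search covered 3 other words. GAGAG, the repeat read by GAGA factor, was within 50 bp of 4 of the 22 sites (18.2%), against 15.4% of all thresholded summits. CAGGTAG, the site of the early embryonic activator Zelda, was at 2 of the 22 sites (9.09%), against 0.516% of all. These were CHES-1-like site 8 and slp1 site 1, which no replicate supported. TATCGATA, the site of the promoter factor Dref, was at none, against 0.634% of all. Of the windows 300 bp to either side of all thresholded summits, 14.6% held GAGAG, 0.61% CAGGTAG and 0.458% TATCGATA. All words were sought on both strands, and the 4 cores are distinct words of 7 bases, so no run of letters matched more than 1 of them on a strand.

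Among other forkhead genes of the annotation, 2 of 7 had a thresholded summit in the gene or within 2 kb. foxo, which carries the response to insulin signalling, had 4 in a window of 35.0 kb, none supported by all 3 replicates. Its strongest ranked 2440, and its promoter summit, 213 bp upstream of a start site, ranked 4172. fd3F, a factor of sensory neurons, had 1, at rank 2174. fd19B, fd59A, fd96Ca, fd96Cb and fd102C had none. These genes were thus at 28.6%, close to the 27.6% of all protein-coding genes.

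Lists of genes from the tissues or processes in which fkh, bin, slp1 and slp2 act were also looked at. Whether the listed genes act with these members was not tested. Of 23 salivary gland genes around fkh, 8 had a summit in the window (34.8%, against 27.6% of all protein-coding genes) and 5 at a promoter (21.7%, against 13.4%): the tracheal and salivary regulator trh (rank 2384), the sulfotransferase gene pip (780), Papss, which makes the sulfate donor (1222), klar of nuclear positioning (2475) and crb of apical polarity (1941). The promoter sites of pip and Papss were supported by all 3 replicates, at ranks of 548, 720 and 1943 for pip and 999, 1152 and 2878 for Papss in replicates 1, 2 and 3. Those of trh, klar and crb were not: trh stood at 4547 in replicate 1, crb at 26713 in replicate 3, and klar had no entry within 100 bp in replicate 3. None of the glue genes Sgs3, Sgs4, Sgs5, Sgs7 and Sgs8 had a thresholded summit in the window. Their windows were short, from 4.39 to 5.18 kb, and 19.7% of all genes with a window under 8 kb had such a summit. Of 21 visceral mesoderm genes around bin, 12 had a summit in the window (57.1%, against 27.6% of all protein-coding genes) and 5 at a promoter (23.8%, against 13.4%): the heart gene tin (1409), the T-box gene org-1 (399), the gap gene hb (1571), ken (2864) and the axon gene fax (3139). Of these 5 genes, org-1 alone had its promoter site supported by all 3 replicates, at ranks of 485, 582 and 275 in replicates 1, 2 and 3. Of 16 segmentation genes around slp1 and slp2, 3 had a summit in the window (18.8%, against 27.6% of all protein-coding genes) and 1 at a promoter (6.25%, against 13.4%). That gene was nkd, an inhibitor of Wingless signalling (1278), with support from all 3 replicates at ranks of 772, 1640 and 2046. Windows in these lists ran from 4.39 to 398 kb, and among all genes the share with a summit was 58.9% for windows above 16 kb, so the counts are given as a description and nothing is read from them about these groups.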

How the data were processed

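Binding of GFP-tagged CG12071 was measured by ChIP-seq in 3 biological replicates, numbered by the labels. Chromatin was sonicated, the assembly was dm6 and a separate control was named, per the labels. The file names, as deposited, mark lists of peaks and background per replicate and for pooled reads, and 1 list thresholded by irreproducible discovery rate. No aligner or caller was stated. The deposited score is the signal value of the authors' caller, on a scale not stated, and was used only for ranks within a list. The deposited −log10 q-value was used only to count entries at 0.05 or less.

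Summits are column 2 plus column 10, counted from 1. Genes were those of the BDGP6.54 annotation (Ensembl 115). Sequence was read from the RefSeq copy of release 6, whose coordinates are those of dm6. All entries lay within the arms. A site's own class was taken in the order promoter (500 bp), UTR, coding exon, intron and flank. The ranks of a site are those of the entry nearest within 100 bp. Members, gene lists and motifs were chosen with earlier results of these data known, and the 3 further cores after a word search. Listed symbols without an annotated gene were left out. All 10 members are named, with list genes that had a promoter summit and others singled out after their values were seen. Wilson intervals cover counting error only. Alternatives were other flanks, start-site windows, support rules, motif windows, the 2130 strongest peaks and leaving out each replicate. Python 3.11.15, NumPy 2.4.6, pandas 2.3.3, SciPy 1.17.1 and matplotlib 3.10.9 were used, and the counting steps were tested on simulated summits.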

Additional observations from a re-analysis of the deposited data

How the results depend on the processing

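No paired analysis was possible because the series holds 1 group. The count of 7 members with a site became 3 with no flank, 9 with a flank of 5 kb and 4 when only sites supported in all 3 replicates were kept, and 4 to 5 when a replicate was left out. The 22 sites became 16 with no flank, 27 with a flank of 5 kb, 13 with support in all 3 replicates, and 13 to 16 when a replicate was left out, a setting that keeps only sites supported by both other replicates and can only lower the count. Members with a promoter site were 4, but 2 with a window of 250 bp, 5 with 1000 bp and 3 when any replicate was left out. Among the 2130 strongest peaks there were 5 members, 3 with a promoter site, and 17 sites. Sites supported in all 3 replicates were 13, but 9 within 50 bp, 14 within 200 bp and 16 among all entries with a q-value of 0.05 or less. With a replicate left out they were 13 to 16. That setting asks for support by both other replicates only, so it cannot lower this count. Sites with GTAAACA were 3, 2 within 25 bp, 3 within 100 bp and 9 with any of the 4 cores, which was added once the data were known. Over the 19 sites with a rank in every replicate, the median of the mean rank was 1583, and 1405 to 1789 with a replicate left out. CHES-1-like site 10, FoxK site 2 and slp1 site 1 have no mean rank and are not in it. The cause of these shifts was not tested beyond what the settings themselves remove. Read depth is unknown, so a site absent from a replicate's list cannot be told apart from one missed at that depth.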
